A study of Danio rerio with 10 samples.

Results

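The genes described here are lyz, mpx, npsn, cpa5, lect2l and srgn, 6 of the 15335 genes in the zebrafish mRNA count tables. They were chosen by symbol as genes of proteins that neutrophils store in granules or secrete, and all 6 were found. A neutrophil makes most of its granule proteins while it matures in blood-forming tissue, packs them into vesicles and releases them at a site of infection or injury. The mRNA of these genes therefore serves as a marker of the lineage and of its maturation. In zebrafish larvae, reporters built on lyz and mpx are the usual way to see neutrophils.

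Messenger RNA was measured in neutrophils sorted by fluorescence from larvae of the AB background at 3 days post fertilization. The miR-199 group comprised 3 libraries from a transgenic line that overexpressed the microRNA miR-199 together with a green fluorescent reporter. The vector group comprised 2 libraries, replicates 1 and 3, from a line that carried the vector control with the same kind of reporter. All larvae of both groups thus carried a transgene, and the labels give neither its promoter nor the number of founders or of pooled larvae. The small RNA libraries of the series do not measure these genes and were not used.

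The libraries held between 12339928 and 17024134 counts over genes, and 10660 to 11082 genes had at least 1 count. Below, CPM is counts per 1000000 scaled by the TMM factors, for one gene across libraries, and TPM is the level per base of listed gene length, for different genes within a library. Of the other neutrophil genes of a list described below, 17 were listed in the tables, at levels that differed widely. The oxidase subunit gene ncf1 averaged 4138 CPM in miR-199 and 4735 CPM in vector neutrophils, and cybb, another subunit of that oxidase, averaged 1849.5 CPM in miR-199 and 1073 CPM in vector neutrophils. At the low end, abcb9 had 0 to 4 and nccrp1 1 to 10 counts in a library, and coro1a 20 to 49. These 3 are listed on several sequences of the assembly, but so is lta4h of the same list, with 21999 to 34350 counts.

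Of the 6 genes, all but npsn were among the most abundant transcripts of these cells. The counts of npsn were low, but most of its listed bases are shared with another gene, as described below. Its level and place among the 6 are therefore those of its counts and do not show how abundant its transcript was. Together they made up 5.29%, 5.32% and 5.51% of all counts in miR-199 replicates 1, 2 and 3, against 6.51% and 6.50% in vector replicates 1 and 3. By counts, lect2l was the second most abundant gene in each of the 5 libraries. In miR-199 neutrophils the mean level was 39327 ± 3498 TPM for lect2l, 32229 ± 5189 TPM for lyz and 15201 ± 1963 TPM for cpa5 (SD, n = 3). Below these stood srgn at 6009 ± 181 TPM, mpx at 3167 ± 988 TPM and npsn at 15.1 ± 6.30 TPM (SD, n = 3). The transcripts of the secreted factor and of lysozyme thus led per base, well ahead of the peroxidase and the proteoglycan core. In vector neutrophils lect2l held 51594 ± 1911 TPM, lyz 48528 ± 1633 TPM and cpa5 8776 ± 690 TPM (SD, n = 2). There mpx, at 4986 ± 113 TPM, stood above srgn, at 4097 ± 156 TPM, and npsn held 15.3 ± 1.31 TPM (SD, n = 2). The places of mpx and srgn were thus exchanged between the groups. In miR-199 the ranges of lect2l and lyz overlapped, although lect2l was above lyz in all 3 libraries, and every other pair of neighbours in either group was apart in these few libraries.

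**Figure D1:**
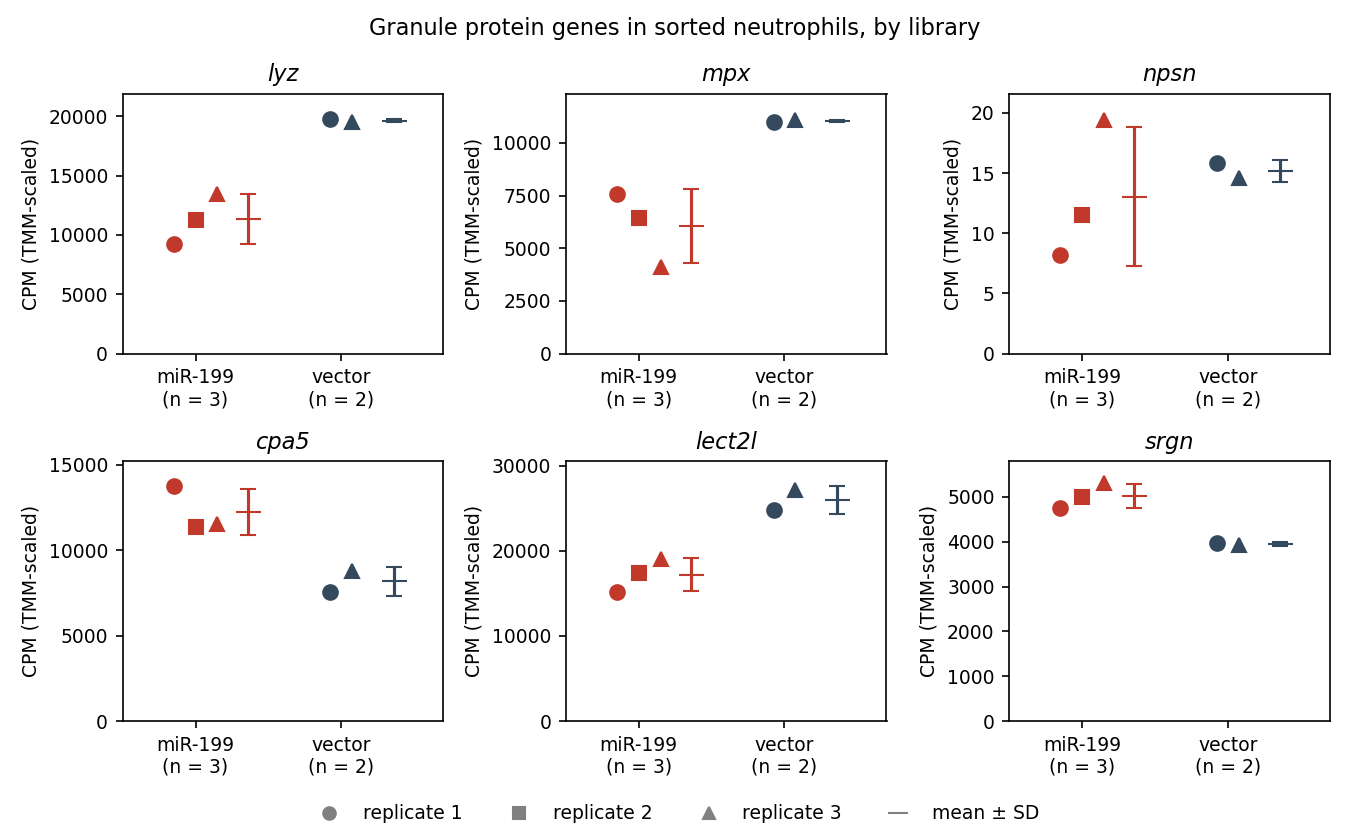
Expression of the 6 genes in TMM-scaled CPM (vertical axes from 0) in each library, with miR-199 in red and vector in dark blue, symbols for the replicate, and the mean ± SD beside them. For lyz, mpx and lect2l all miR-199 points lie below both vector points, for cpa5 and srgn all lie above, and for npsn the groups overlap.

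The comparison of miR-199 with vector shows which transcripts differed between the transgenic lines, and whether the microRNA caused a difference was not tested. Of the 6 genes, 2 fell and 0 rose at an adjusted p under 0.05 by edgeR's quasi-likelihood test. Over all 8897 tested genes, 10.4% were called lower and 9.49% higher, 19.9% in all, and of the 119 tested genes whose mean reached 1000 CPM 43.7% were called. At an unadjusted p under 0.05, 3 of the 6 were lower and 2 higher, where 17.7% of all tested genes were lower and 19.2% higher, 36.9% in all. DESeq2 called 5 of the 6, all but npsn, where it called 27.0% of all genes with an adjusted p. The groups did not overlap for 5 of the 6, against 57.3% of all tested genes; miR-199 was the lower group for 3 of the 5 (28.4% of all genes) and the higher for 2 (28.9%). The median log2 fold change of the 6 was -0.41, against 0.019 over all tested genes and -0.23 over those of at least 1000 CPM. That median lies between the values of lect2l (-0.60) and npsn (-0.22), so it depends on npsn. This gene was far under 1000 CPM, and its counts have the limit described below. These are bulk libraries, so fewer cells of a type and less RNA per cell cannot be told apart.

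The calls rested on few libraries. Without vector replicate 1 and without vector replicate 3, where the lone vector library is assumed to vary like the others, 0 of the 6 were called, and over all genes 2 and 0 were called. Without miR-199 replicate 2 also 0 of the 6 were called, and 926 of all genes (10.6%). Without miR-199 replicate 1, however, 4 of the 6 were called (3 lower, 1 higher), where 2092 of all genes (23.9%) were. Without miR-199 replicate 3, 1 of the 6 was called, where 2195 of all genes (25.1%) were. Scaling also mattered. With library totals in place of TMM factors the log2 fold changes of all genes moved up by a median of 0.13, and 1 of the 6 was called lower (lyz) and 2 higher (cpa5 and srgn). Over all genes that scaling called 1139 higher and 674 lower (62.8% higher), against 844 and 928 with TMM (47.6% higher).

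**Figure D2:**
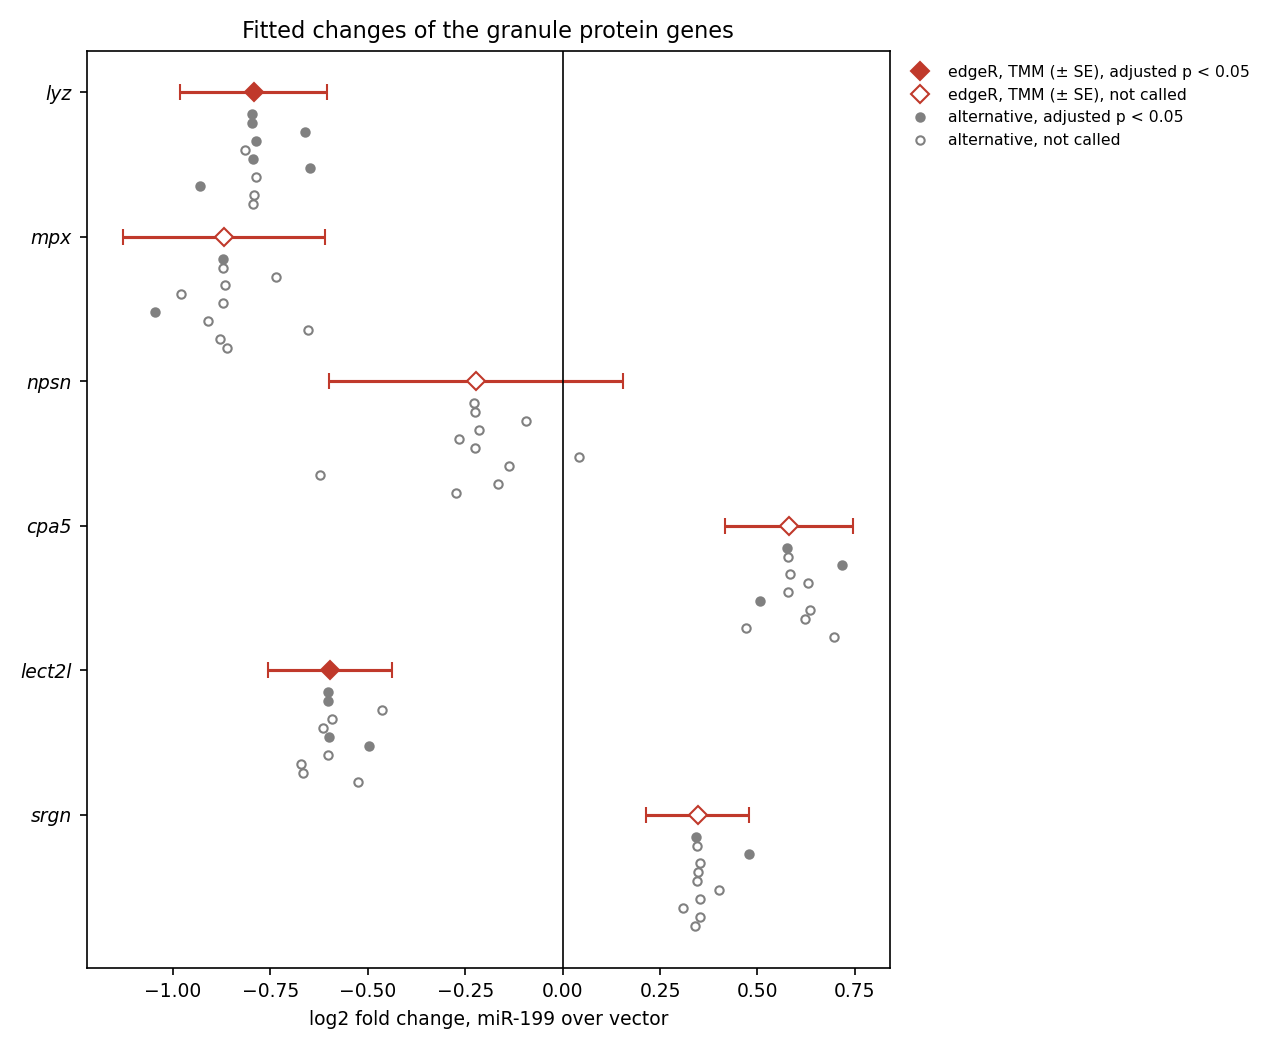
Log2 fold change of each gene, miR-199 over vector (horizontal axis), by edgeR with TMM (red diamonds, ± SE) and under 11 alternatives (grey circles), filled where the adjusted p is under 0.05. The values of lyz, mpx and lect2l stay below 0 and those of cpa5 and srgn above 0 under every alternative, whereas npsn crosses 0 in 1 of them.

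Among the enzymes, lyz encodes lysozyme, which cleaves the peptidoglycan of bacterial cell walls. The gene is listed on an alternate sequence of chromosome 24 of GRCz11, at 71225 to 74136 of that sequence on the minus strand, in 4 exons of 586 bases. The labels do not say whether the transgene holds any lyz sequence, so whether it adds to the lyz counts was not tested. It held 9256, 11295 and 13435 CPM in miR-199 replicates 1, 2 and 3, against 19720 and 19536 CPM in vector replicates 1 and 3. The vector libraries were nearly equal and every miR-199 library was lower, replicate 1 the lowest. The transcript fell by 0.79 on the log2 scale (SE 0.19), 1.73-fold lower, with an edgeR adjusted p of 0.0359. The adjusted p was 0.0931 without miR-199 replicate 2, 0.208 without vector replicate 1 and 0.265 without vector replicate 3.

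The other enzyme, mpx, is the zebrafish counterpart of mammalian myeloperoxidase, the heme enzyme that makes hypochlorous acid from hydrogen peroxide. Its exons, 3205 bases in all, span 7778873 to 7785954 of chromosome 10 in GRCz11, on the minus strand. Its values were 7588, 6414 and 4124 CPM in miR-199 replicates 1, 2 and 3, against 10998 and 11065 CPM in vector replicates 1 and 3. All miR-199 libraries were lower than both vector libraries, but here replicate 3 was the lowest and replicate 1 the highest, the reverse of lyz. The log2 fold change was -0.87 (SE 0.26). The edgeR adjusted p, 0.0637, missed the threshold. It was 0.0182 without miR-199 replicate 1, where the log2 fold change was -1.05, and 0.00866 by DESeq2. Leaving out replicate 3 brought the log2 fold change to -0.65.

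Of the proteases, cpa5 encodes a carboxypeptidase of the A family, which trims amino acids from the ends of peptides, and in zebrafish cpa5 is also used as a marker of mast cells. Its 11 exons span 18459929 to 18470695 of chromosome 25, also on the minus strand. It held 13774, 11384 and 11559 CPM in miR-199 replicates 1, 2 and 3, against 7567 and 8788 CPM in vector replicates 1 and 3. Every miR-199 library lay above both vector libraries, and miR-199 replicate 1 was the highest. The log2 fold change was 0.58 (SE 0.16), and the edgeR adjusted p, 0.0553, was not past the threshold. It was 0.0269 with library totals as scaling, 0.00523 by DESeq2 and 0.0334 without miR-199 replicate 1. Only these 3 of the 11 alternatives passed. The edgeR adjusted p was 0.0896 without miR-199 replicate 2, 0.0764 without replicate 3 and 0.0954 with no filter on low counts. The mast cell factor gene gata2a had 4, 1 and 8 counts in miR-199 libraries and 16 and 9 in vector libraries. Its relative gata2b went the other way, with 14, 22 and 13 counts in miR-199 libraries and 0 and 4 in vector libraries. The part of mast cell RNA in the cpa5 values was not tested. The 13 listed exocrine pancreas genes summed to 10.4, 10.98 and 7.01 CPM in miR-199 replicates 1, 2 and 3, against 1.33 and 2.34 CPM in vector replicates 1 and 3. Of these genes, 5 had at most 3 counts in every library, 4 of them listed on several sequences of the assembly, and the part of pancreatic RNA in the cpa5 values was not tested.

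The other protease, npsn, encodes nephrosin, a secreted metalloproteinase of the astacin family that is known from fish leukocytes. It had only 124, 147 and 263 counts in miR-199 replicates 1, 2 and 3, against 261 and 199 in vector replicates 1 and 3. In CPM this was 8.16, 11.5 and 19.4 in miR-199, against 15.8 and 14.6 in vector, so the groups overlapped. The log2 fold change was -0.22 (SE 0.38), at an edgeR adjusted p of 0.706. It was -0.62 without miR-199 replicate 3 and changed sign, to 0.043, without replicate 1.

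These npsn values do not measure the transcript as those of the other 5 genes do. The gene spans 38653481 to 38658412 of chromosome 7, read from the minus strand, and 1279 of its 1438 exonic bases (88.9%) are also listed as exons of npsnl, a gene of the same strand at 38653481 to 38658388. Only 159 bases are its own, of which 71 form one run at the 3′ end of a longer form of its second-to-last exon and 57 another inside the last exon. No other of the 6 shares an exonic base with a listed gene. By default featureCounts, the counter named in the submitters' processing notes, assigns no read that overlaps 2 genes, but the setting used is not given in the sources used here. With 4 bases of its own, npsnl had 25, 32 and 57 counts in miR-199 replicates 1, 2 and 3, against 43 and 31 in vector replicates 1 and 3. Both genes were lowest in miR-199 replicate 1 and highest in CPM in miR-199 replicate 3. If all npsn reads came from its own 159 bases, the gene would have 53.7, 74.9 and 126 counts per 1000 bases and 1000000 counts in miR-199, against 96.4 and 84.5 in vector. The same reckoning on the 4 bases of npsnl would give 430, 648 and 1084 in miR-199, against 631.5 and 523 in vector. These rates rest on that assumption and are not measured levels of either gene.

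**Figure D3:**
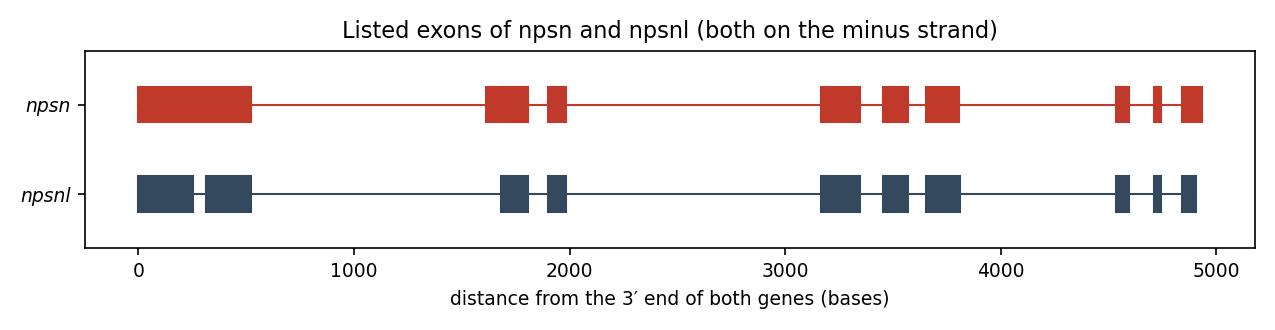
Listed exons (boxes) of npsn and npsnl along their common locus, in bases from the 3′ end that they share. The 159 bases found in npsn alone are short stretches, chiefly in the last exon and in the one before it.

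The secreted factor gene lect2l encodes a protein related to leukocyte cell-derived chemotaxin 2, which in mammals is a secreted protein first described as attracting neutrophils. Its 5 exons, of 729 bases, span 36885524 to 36887063 of chromosome 14 on the plus strand. Its values were 15157, 17396 and 18976 CPM in miR-199 replicates 1, 2 and 3, against 24808 and 27162 CPM in vector replicates 1 and 3. All miR-199 libraries lay below both vector libraries, in the same order of replicates as for lyz. The transcript fell by 0.60 on the log2 scale (SE 0.16), 1.51-fold lower, with an edgeR adjusted p of 0.0476. This call lay close to the threshold and was lost without miR-199 replicate 2 (0.105), without replicate 3 (0.0651), and without vector replicate 1 (0.203) or 3 (0.355). With library totals the adjusted p was 0.0665, and with no filter on low counts 0.100.

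The granule matrix is represented by srgn, which encodes serglycin, the core protein of the proteoglycan on whose sulphated sugar chains, in mice, granule proteases such as neutrophil elastase are stored. Its 3 exons, of 1396 bases, span 23070581 to 23074454 of chromosome 13 on the minus strand. It held 4760, 5003 and 5301 CPM in miR-199 replicates 1, 2 and 3, against 3978 and 3916 CPM in vector replicates 1 and 3. The miR-199 libraries lay close together and all above both vector libraries. The log2 fold change was 0.35 (SE 0.13), 1.27-fold, and the edgeR adjusted p, 0.113, missed the threshold. The gene passed with library totals, at 0.0449, and by DESeq2, at 0.0340, and these were the only 2 of the 11 alternatives. The edgeR adjusted p was 0.181 without miR-199 replicate 2, 0.172 without replicate 3 and 0.235 with no filter on low counts.

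Ratios of counts within a library do not depend on the scaling between libraries. For 1 count of cpa5 there were 0.672, 0.992 and 1.16 counts of lyz in miR-199 replicates 1, 2 and 3, against 2.61 and 2.22 in vector replicates 1 and 3. The mean log2 ratio of lyz over cpa5 was -0.12 ± 0.41 (SD, n = 3) in miR-199 and 1.27 ± 0.16 (SD, n = 2) in vector. For mpx over cpa5 the log2 ratios were -0.86, -0.83 and -1.49 in miR-199 replicates 1, 2 and 3, against 0.54 and 0.33 in vector. The peroxidase transcript thus had fewer counts than cpa5 in each miR-199 library and more in each vector library. Counts also depend on gene length, here 3205 bases for mpx and 1348 for cpa5. Per base, cpa5 stood above mpx in both groups, at 15201 against 3167 TPM in miR-199 and 8776 against 4986 TPM in vector. Relative to srgn, lyz stood at 1.94, 2.26 and 2.53 in miR-199, against 4.96 and 4.99 in vector, and lect2l at 3.18, 3.48 and 3.58 in miR-199, against 6.24 and 6.94 in vector.

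Pairs whose fold changes lay on the same side of 0 differed less. This largely follows from those fold changes and is no separate evidence. The log2 ratio of lyz over lect2l was -0.61 ± 0.11 (SD, n = 3) in miR-199 and -0.40 ± 0.10 (SD, n = 2) in vector. That of cpa5 over srgn was 1.28 ± 0.22 (SD, n = 3) in miR-199 and 1.05 ± 0.17 (SD, n = 2) in vector, with overlapping libraries. The 2 enzyme genes did not keep a fixed ratio, since lyz over mpx was 1.22, 1.76 and 3.26 in miR-199 replicates 1, 2 and 3, on both sides of the 1.79 and 1.77 in vector replicates 1 and 3. Library by library no test of these ratios was run, because 3 libraries against 2 cannot reach p = 0.05 in an exact permutation test.

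**Figure D4:**
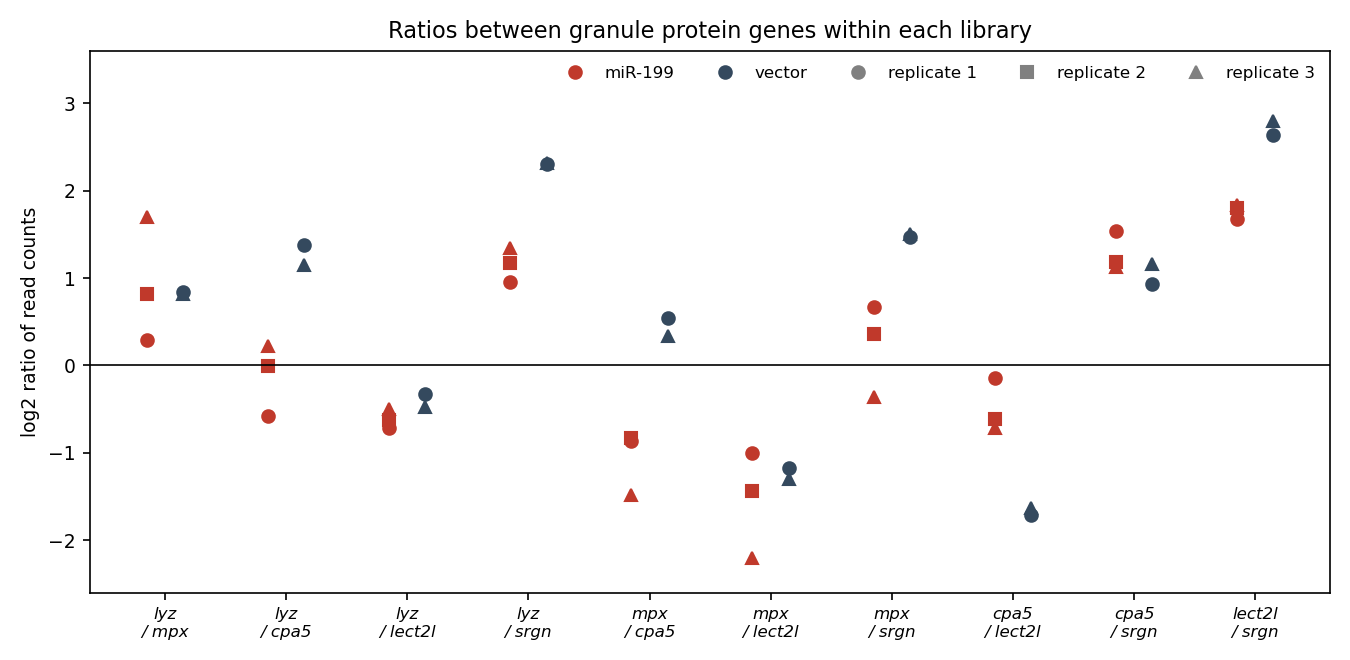
Log2 ratios of read counts (vertical axis) for the 10 pairs among the genes other than npsn, in each miR-199 (red) and vector (dark blue) library. The ratios of lyz, mpx or lect2l to cpa5 or srgn separate the groups by about 1 log2 unit or more, whereas lyz over mpx overlaps them and spreads over more than 1 unit within miR-199.

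The 6 genes also differed in how much the miR-199 libraries varied. The standard deviation of log2 CPM among the miR-199 libraries was 0.078 for srgn, 0.15 for cpa5, 0.16 for lect2l, 0.27 for lyz, 0.45 for mpx and 0.62 for npsn. The median over tested genes whose mean reached 100 CPM was 0.18, and 88.9% of those genes varied no more than mpx. The highest miR-199 library held 1.84 times the mpx level of the lowest, and 1.11 times the srgn level. Between the 2 vector libraries the standard deviation was 0.0062 for mpx, 0.0095 for lyz and 0.016 for srgn, against a median of 0.072. The widest vector pair was that of cpa5, at 0.15.

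The genes whose pattern was closest to each of the 6 were sought among tested genes of at least 100 CPM, by the mean absolute difference in log2 CPM over the 5 libraries after centring each gene. For lyz these were ywhabl (0.036), a 14-3-3 adaptor gene, and selenow1 (0.044), a selenoprotein gene. For lect2l they were zyx (0.018), which encodes the focal adhesion protein zyxin, and cebp1 (0.026), a myeloid transcription factor gene of the C/EBP family. The closest to mpx were socs3b (0.086), a feedback inhibitor of cytokine signalling, and arpc5b (0.093), a subunit of the Arp2/3 actin complex. For cpa5 they were rbm39a (0.013), a splicing factor gene, and pnrc2 (0.055), for srgn patl1 (0.036) and slc25a5 (0.037), a mitochondrial ADP/ATP carrier, and for npsn ehd1a (0.077) and fam117bb (0.099). As 1673 to 1674 genes were searched over 5 libraries, such closeness is a description only.

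Other genes around the granule were then counted, in lists drawn up with earlier results of these data known, so no list stands as independent evidence. Beside the counts below, 36.9% of all tested genes reached an unadjusted p under 0.05 by edgeR. DESeq2 called 27.0% of all genes with an adjusted p. The edgeR share called was 10.6% without miR-199 replicate 2 and 25.1% without replicate 3. Of the list of other granule and lysosomal proteins, 21 genes were tested, and 6 fell and 0 rose, where 10.4% of all tested genes fell and 9.49% rose. At an unadjusted p under 0.05, 9 were lower and 1 higher, and DESeq2 called 7 lower and 1 higher. The median log2 fold change was -0.35. The gelatinase gene mmp9 held 1141, 2436 and 4228 CPM in miR-199 replicates 1, 2 and 3, against 9560 and 12038 CPM in vector replicates 1 and 3, and fell by 2.05 (SE 0.50), at an edgeR adjusted p of 0.0373. The goose-type lysozyme gene lygl1 held 61.7, 90.9 and 93.0 CPM in miR-199 replicates 1, 2 and 3, against 254 and 254 CPM in vector, and fell by 1.63 (SE 0.20). The short granulin genes grn1 and grn2 fell by 4.78 and 3.18, though reads of such close relatives may have been split between them. Without miR-199 replicate 2 the list had 2 calls, where 10.6% of all tested genes were called, and mmp9 (0.110) and grn2 (0.104) lost theirs.

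Sorting and release of granules was covered by 22 tested genes, of which 5 fell and 0 rose, against 10.4% lower and 19.9% called in all over the tested genes. At an unadjusted p under 0.05, 6 were lower and 0 higher. DESeq2, with an adjusted p for 23 genes of the list, also called 6 lower and 0 higher. The median log2 fold change was -0.29, and -0.15 with library totals. The membrane fusion gene vamp8 held 196, 349 and 226 CPM in miR-199 replicates 1, 2 and 3, against 704 and 759 CPM in vector replicates 1 and 3, and fell by 1.51 (SE 0.25), at an edgeR adjusted p of 0.0154. Its partner gene stxbp2, mutated in a human disorder of granule release, fell by 0.85 (SE 0.17), and hps1, needed for lysosome-related organelles, fell by 0.76 (SE 0.16). The gene stx4, a syntaxin gene named because so few genes of the list were called, fell by 0.69. The lowest, snap23.2, fell by 5.55 to a mean of 0.436 CPM in miR-199, against 20.7 CPM in vector, but snap23.1, a relative that could share its reads, averaged 346 CPM in miR-199 and 207 CPM in vector. The most abundant gene of the list, stx11a, had a log2 fold change of -0.029 with an adjusted p of 0.940. Without miR-199 replicate 2, 3 genes of the list were called, without stxbp2 (0.0659) and hps1 (0.0648), and 0 without either vector library.

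Heme and sugar chain synthesis provide the non-protein parts of peroxidases and of serglycin. Heme is the cofactor of peroxidases, and of 9 heme synthesis genes, all tested, 3 fell and 0 rose, against 10.4% lower over all tested genes. At an unadjusted p under 0.05, 4 were lower and 0 higher, and DESeq2 called 3 lower and 0 higher. The median log2 fold change was -0.33, but -0.19 with library totals and -0.55 without miR-199 replicate 2. The gene of the first enzyme, alas1, held 308, 284 and 368 CPM in miR-199 replicates 1, 2 and 3, against 648 and 744 CPM in vector, and fell by 1.12 (SE 0.16), at an edgeR adjusted p of 0.0106. The genes of 2 later enzymes, uros and urod, fell by 1.00 and 1.29, whereas the last enzyme's gene, fech, had a log2 fold change of -0.11 (adjusted p 0.866). Without miR-199 replicate 2, alas1 alone was called, with 0.0748 for uros and 0.0897 for urod, and without either vector library 0 were.

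For the sugar chains of serglycin, 19 synthesis genes were tested, of which 2 rose and 1 fell, a share below the 19.9% called over all tested genes, with a median log2 fold change of 0.13. DESeq2 called 2 higher and 2 lower, and 3 were higher and 2 lower at an unadjusted p under 0.05. The sulphate donor enzyme gene papss2b held 2721, 1591 and 1846 CPM in miR-199 replicates 1, 2 and 3, against 682 and 742 CPM in vector, and rose by 1.53 (SE 0.26), at an edgeR adjusted p of 0.0155. Its relative papss2a fell by 1.66 (SE 0.23) at a far lower level, with 7.72 CPM in miR-199 and 24.5 CPM in vector. The chondroitin synthase gene chsy1 rose by 0.55 (SE 0.14), with an adjusted p of 0.0455 that was 0.0739 without miR-199 replicate 2. Without miR-199 replicate 3 the list had 5 calls among its 19 genes, where 25.1% of all tested genes were called.

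Of 12 tested myeloid transcription factor genes, 1 rose and 2 fell, against 19.9% called over all tested genes, with a median log2 fold change of 0.33. DESeq2, with an adjusted p for 14 genes of the list, called 4 higher and 2 lower. Of the 12, 5 were higher and 2 lower at an unadjusted p under 0.05. The progenitor factor gene myb held 873, 715 and 463 CPM in miR-199 replicates 1, 2 and 3, against 259.5 and 268 CPM in vector, and rose by 1.37 (SE 0.28), at an edgeR adjusted p of 0.0233. The gene spi1a, a relative of PU.1, fell by 2.29 (SE 0.33), from 1445 CPM in vector to 296 CPM in miR-199. Its relative spi1b averaged 2482 CPM in miR-199 and 1848.5 CPM in vector. The log2 fold change of spi1b was 0.43 (SE 0.15), at an edgeR adjusted p of 0.0886. The gene cebp1, named above for its pattern, fell by 0.65 (SE 0.15). The most abundant, cebpb, had a log2 fold change of -0.10 (adjusted p 0.805), whose sign changed to 0.039 with library totals. Without miR-199 replicate 2 only spi1a was called, with 0.0667 for myb and 0.0803 for cebp1, and without either vector library 0 were.

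A last list held other neutrophil genes, among them those of the oxidase, whose membrane subunits, encoded by cyba and cybb, also lie in granule membranes. Of 15 tested, 4 fell and 0 rose, against 10.4% lower over all tested genes, with a median log2 fold change of -0.37. At an unadjusted p under 0.05, 6 were lower and 2 higher. DESeq2, with an adjusted p for 16 genes of the list, called 5 lower and 2 higher. The genes that fell were pnp5a, by 1.88, scpp8, by 1.28, and the oxidase genes cyba, by 0.79, and rac2, by 0.73. The most abundant, cxcr4b, a chemokine receptor gene, had a log2 fold change of 0.22 (adjusted p 0.328). The list kept 4 calls when miR-199 replicate 2 was left out, though not the same 4. Without miR-199 replicate 2 the adjusted p of rac2 was 0.0518, and without either vector library 0 genes were called.

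**Figure D5:**
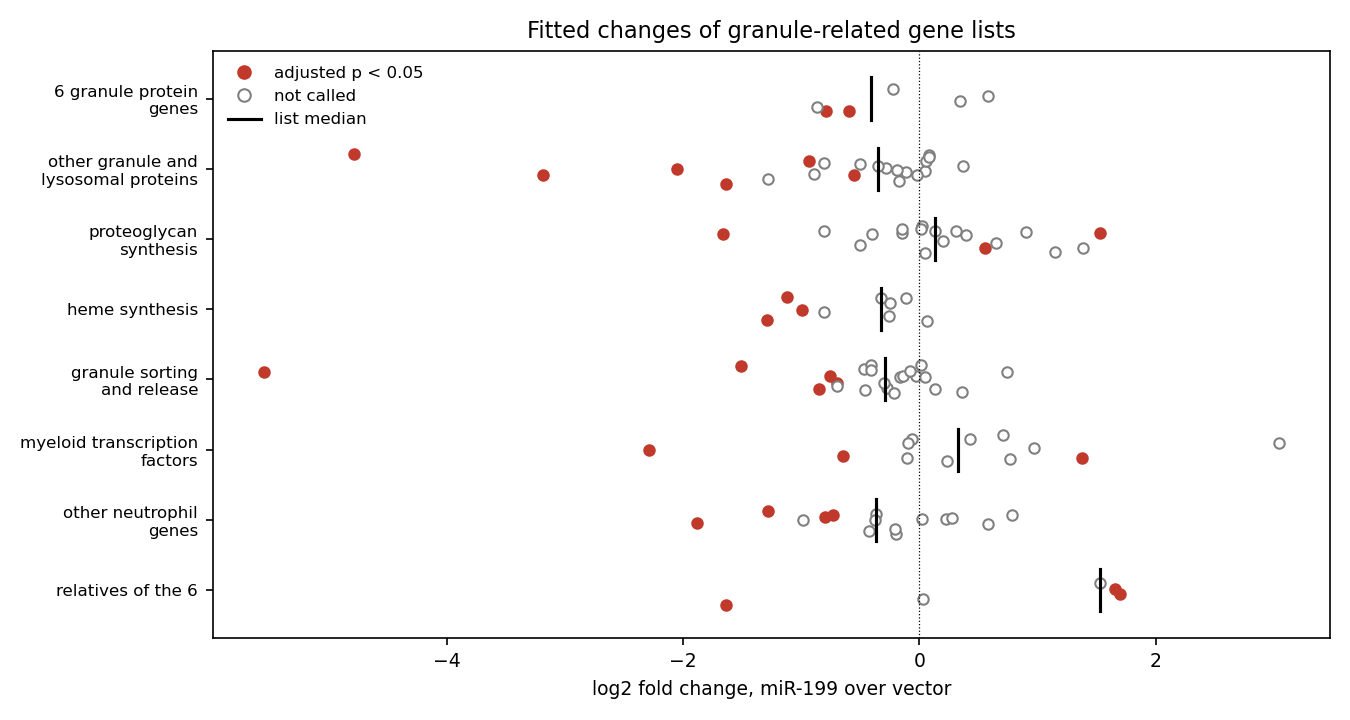
Log2 fold changes, miR-199 over vector (horizontal axis), of the tested genes of each list, filled red where the edgeR adjusted p is under 0.05, with the list median as a black bar. Calls lie below 0 for the 6 genes, the other granule proteins, heme synthesis, granule release and also the other neutrophil genes. They lie on both sides for proteoglycan synthesis, transcription factors and the relatives of the 6 genes.

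Markers of other cells were low in all libraries apart from icn, but some moved with the groups. The 11 listed macrophage markers summed to 56.3, 50.4 and 23.08 CPM in miR-199 replicates 1, 2 and 3, against 23.8 and 20.0 CPM in vector replicates 1 and 3. The most abundant, cd74a, had a log2 fold change of 0.88 (edgeR adjusted p 0.134). Its edgeR adjusted p was 0.174, 0.274 and 0.0178 without miR-199 replicates 1, 2 and 3. Of the 11, 5 (mpeg1.1, slc7a7 and all 3 c1q genes) had 0 counts in every library. All 5 are listed on several sequences of the assembly, as are 1832 genes of which 78.4% had at most 3 counts in every library, against 23.5% of the genes listed on 1 sequence. The 9 listed erythroid markers summed to 10.1, 20.2 and 6.64 CPM in miR-199, against 4.91 and 4.61 CPM in vector, and 6 of them, among them the globin gene hbbe2, were at 0. Nearly all of this sum was slc4a1a, an anion exchanger gene, with a log2 fold change of 1.43 and an adjusted p of 0.0961 by edgeR and 0.0299 by DESeq2. The 13 listed keratinocyte markers summed to 1696, 2322 and 2478 CPM in miR-199, against 2949 and 2137 CPM in vector, nearly all of it icn, while krt4 averaged 3.43 CPM in miR-199 and 4.004 CPM in vector. The 8 muscle markers summed to 5.20, 9.18 and 24.7 CPM in miR-199, against 6.79 and 7.83 CPM in vector. Of these the actin gene actc1b was the most abundant, with a log2 fold change of 1.61 (edgeR adjusted p 0.209, and 0.0329 without miR-199 replicate 1). Without miR-199 replicate 3 its log2 fold change was 0.57 (edgeR adjusted p 0.480). The part of these other cells in the results above was not tested.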

How the data were processed

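Messenger RNA of sorted neutrophils was measured in 3 miR-199 and 2 vector libraries made with the SMART-Seq v4 kit, per the labels' protocols. The deposited values are unnormalized read counts, by gene symbol and with 1 library per file, with exon coordinates in the layout of featureCounts, per the file headers. The submitters' processing notes name STAR 2.5, featureCounts of Subread 1.5.1, edgeR 3.20.8 and GRCz11. The use of strand and the treatment of reads with several placements are not given in the sources used here.

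The 5 libraries were compared with edgeR 4.0.16 (glmQLFit and glmQLFTest, two-sided, TMM factors, filterByExpr by group) in R 4.3.3, with Benjamini-Hochberg adjustment over 8897 genes and a threshold of 0.05. Standard errors are |log2 fold change| / √F. Fold changes are miR-199 over vector. The steps were also run on simulated counts that had the same dispersion, 0.085, for every gene and library. The spread of the real libraries differed between the groups, so that run does not show how the calls perform here. Alternatives were DESeq2 1.42.0, RLE factors, library totals, no filter on low counts, TMM factors without the 6 genes and the 50 most abundant, a replicate block, and each library left out. The log2 CPM used for spread and likeness has a prior count of 2.

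The genes, the 7 pathway lists and 5 marker lists, and the tests were chosen with earlier results of these data known. Named besides the 6 genes are, for each list, up to 4 called genes of largest change in each direction and the most abundant gene. The 2 nearest patterns per gene are also named. Genes named outside this rule were chosen after their values were seen. Among them are gata2a, gata2b, spi1b, abcb9, nccrp1, coro1a, ncf1, cybb, stx4, fech, krt4, snap23.1, npsnl and the genes at 0. The chi-square per degree of freedom was 14.5 between the vector libraries and 53.6 to 114 between miR-199 libraries, so none was counted as a repeat. The labels do not say that replicates came from separate clutches, so p-values measure the spread between these samples, which may be technical. A count of 0 allows up to 0.182 to 0.235 TMM-scaled CPM (3 counts, counting error only). A vector replicate 2 was not analysed here.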

Additional observations from a re-analysis of the deposited data

How the results depend on the processing

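The signs of the 5 genes other than npsn were the same under all 11 alternatives, and their side of the threshold was not. Below, values are log2 fold changes. DESeq2 called mpx (-0.87), cpa5 (0.58) and srgn (0.34), hence 2 of the 6 genes higher, and 1357 genes higher over all genes. Library totals called cpa5 (0.72) and srgn (0.48), 2 higher, and lost lect2l (-0.46), leaving 1 lower. Without a filter on low counts lect2l (-0.59) was lost, leaving 1 lower. With each library left out in turn the range was -0.93 to -0.65 for lyz, -1.05 to -0.65 for mpx, -0.62 to 0.043 for npsn, 0.47 to 0.70 for cpa5, -0.67 to -0.50 for lect2l and 0.31 to 0.40 for srgn. The number of the 6 called then ran from 0 to 1 higher and from 0 to 3 lower, and over all genes from 0 to 2195, with 0 to 1083 higher and 0 to 1112 lower. Where 0 genes were called, without vector replicate 3, edgeR gave 1598 at an unadjusted p under 0.05; DESeq2 was not run on that subset. The cause of these changes was not tested, beyond the loss of a library and, for library totals, the median shift of 0.13.

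The replicate numbers do not show a pairing. Over 8897 genes the deviations of replicates 1 and 3 correlated at -0.22 between the groups, and the labels say nothing of what a number marks. With the replicate number as a block, which leaves miR-199 replicate 2 without weight, lyz was at -0.82 and lect2l at -0.61, neither called. Thus 0 of the 6 were called lower. Over all genes 110 were called, 38 higher and 72 lower. Recomputed without a library, the 30 member levels and 75 member ratios moved by less than the spread between replicates. Leaving out a library of so few cannot move such means by more, so this is no test of them. The list medians were recomputed without a library or under RLE factors and library totals, 84 values in all, and those of short lists could move far. The erythroid median, of 1 tested gene, was 0.87 without miR-199 replicate 2, in place of 1.43. No spread between replicates is given for these medians. Of all these values 4 changed sign. Without miR-199 replicate 3 the difference in log2 ratio, miR-199 minus vector, was -0.28 in place of 0.10 for lyz over mpx and 0.016 in place of -0.31 for mpx over lect2l, and the muscle median was -0.12 in place of 0.66. Without vector replicate 1 the keratinocyte median was 0.016 in place of -0.23. Of 84 list counts, 29 moved by over 1.5 times.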

Other observations

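Relatives of the 6 genes, by sequence family or by kind of enzyme, were counted as a further list, drawn up with earlier results of these data known. Of 14 listed relatives 5 could be tested, of which 2 rose and 1 fell, where 19.9% of all tested genes were called by edgeR. The 1 that fell was lygl1, the goose-type lysozyme gene already counted among the other granule and lysosomal proteins. DESeq2 also called 2 higher and 1 lower, among 6 relatives with an adjusted p, against 27.0% of all genes with one. The median log2 fold change of the 5 was 1.53. Of the 14 relatives, 7 had at most 3 counts in every library, among them the pancreatic carboxypeptidase genes cpa4 and cpb1. The astacin gene c6ast1, of the family of npsn, held 72.3, 129 and 95.0 CPM in miR-199 replicates 1, 2 and 3, against 31.0 and 31.7 CPM in vector replicates 1 and 3, and rose by 1.65 in log2 (SE 0.26; edgeR adjusted p 0.0136). The carboxypeptidase gene cpm held 13.1, 6.90 and 11.6 CPM in miR-199, against 3.57 and 2.93 CPM in vector, and rose by 1.69 (SE 0.37), with an adjusted p of 0.0289. The digestive carboxypeptidase gene cpa1 held 3.55, 0.942 and 2.29 CPM in miR-199, against 0.545 and 1.02 CPM in vector, with an adjusted p of 0.184. Without either vector library 0 of these relatives were called, and without any 1 of the miR-199 libraries 3 were, lygl1 included. Of the exocrine pancreas genes, prss59.1 had 13, 27 and 12 counts in miR-199 libraries, against 2 and 2 in vector libraries, with an adjusted p of 0.0484 that was 0.101 without miR-199 replicate 2 and 0.0526 without replicate 3. Of the keratinocyte genes krt91 fell by 2.77 (SE 0.41) with an adjusted p of 0.0122. It had 25, 13 and 11 counts in miR-199 libraries, against 147 and 97 in vector libraries. With the replicate number as a block its edgeR adjusted p was 0.0733.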
